A study of Mus musculus with 24 samples.

Results

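The genes described here are the 32 ER stress and protein folding genes of a bulk RNA-seq count table from mouse LSKs, taken by symbol from a list of ER chaperones, ER-associated degradation genes and the Ire1, Perk and Atf6 arms of the unfolded protein response. The table holds 24091 genes, of which 13520 passed the filter on low counts, and all 32 listed genes were found and passed. LSKs are the Lin-Sca-1+c-Kit+ cells of the bone marrow (BM), the population that holds the hematopoietic stem cells and the earliest progenitors. They came from 4 groups of 6 mice each, 3 females and 3 males: miR-142+/+ mice (WT), miR-142-/- mice (miR-142 KO), miR-142+/+ BCR-ABL mice (CP CML, a model of chronic phase chronic myeloid leukemia) and miR-142-/- BCR-ABL mice (BC CML, the blast crisis model). The study's methods state fewer mice per group than the 6 libraries that the labels list, and all 24 libraries were used here. BCR-ABL was carried as the SCLtTA/BCR-ABL transgene on a B6 background, in which the SCL promoter drives the oncogene once tetracycline is withdrawn, and it had been induced for 2 weeks. The miR-142 deletion was germline, so the gene was absent from all cells of those mice and not from the LSKs alone, and the ages of the mice are not given in the sources used here.

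Secretory and membrane proteins are folded in the lumen of the endoplasmic reticulum (ER) by chaperones such as Hspa5 (BiP) and Hsp90b1 (Grp94), by the lectins calreticulin and calnexin, and by protein disulfide isomerases. When unfolded proteins build up, the membrane sensors Ire1 (gene Ern1), Perk (gene Eif2ak3) and Atf6 raise folding capacity through spliced Xbp1, slow translation while favouring Atf4, and send misfolded chains to ER-associated degradation. In hematopoietic stem cells this response is studied as a switch between survival and death under stress, and Xbp1 is best known in blood for its need in antibody-secreting plasma cells.

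Total counts ran from 16267965 to 24687077 per library, with normalization factors of 0.944 to 1.06. Mir142, the deleted gene, had 0 counts in all 12 libraries labelled miR-142 KO or BC CML, which allows up to 3 counts in a library, against means of 4.44 CPM (counts scaled to a common library size) in WT and 4.77 CPM in CP CML. Kit was at 662 to 1239 CPM and Ly6a (Sca-1) at 30.7 to 155 CPM over the 24 libraries, so the markers that define the sort were present in each. The marker sums of WT replicate 3 (female), miR-142 KO replicate 3 (female) and CP CML replicate 4 (male) stood apart from those of their groups. Without these libraries 3 calls among the 32 genes ended, each given beside its result. The summed CPM of 12 HSC and LSK markers had medians of 4220 (WT), 3829 (CP CML), 3404 (miR-142 KO) and 2995 (BC CML), and its ranges did not overlap between BC CML (2885 to 3289) and CP CML (3480 to 4220) or between miR-142 KO (2953 to 3686) and WT (3812 to 5258). The 12 markers did not all move alike. In BC CML against CP CML 7 were lower and 1 higher, and in miR-142 KO against WT 7 were lower and 2 higher. Fewer cells of a type and less RNA per cell cannot be told apart in these bulk samples. All p-values below are from edgeR's quasi-likelihood test in 1 fit of the 24 libraries, adjusted by Benjamini-Hochberg over the 13520 genes, with a threshold of 0.05.

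Promoter sequences are shown first because the chaperone genes are known for carrying a shared ER stress response element (ERSE). The ERSE was searched as CCAAT, 9 bases of any kind and CCACG, on both strands of a window from 250 bases before to 50 bases after each start site, with RefSeq sequence of build GRCm38.p6. Windows were found for 28 of the 32 genes, and none was available for Hyou1, Manf, Derl1 and Atf6. The element was in 9 of the 28 windows (32.1%), against 0.153% of the windows of the 10447 tested genes that have one and 0.119% of all 32851 windows. The lines give each match on the strand that reads CCAAT first, with 4 bases on either side and the 2 blocks in capitals, for chaperones (Hspa5, both matches of Hsp90b1, and Dnajc3), lectins (Calr, Canx), the isomerase Pdia6, Creld2, and the degradation genes Derl3 and Syvn1.
Hspa5, chr2:34772021-34772047, + strand: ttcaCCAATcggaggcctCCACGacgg
Hsp90b1, chr10:86705529-86705555, + strand: ctcaCCAATcgtgcctcaCCACGcact
Hsp90b1, chr10:86705634-86705660, - strand: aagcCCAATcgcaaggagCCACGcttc
Dnajc3, chr14:118937823-118937849, + strand: acaaCCAATcagcgccaaCCACGaccc
Calr, chr8:84847071-84847097, + strand: tgggCCAATgagggtcgaCCACGcgtt
Canx, chr11:50325796-50325822, - strand: ttgaCCAATcaccacgctCCACGaaga
Pdia6, chr12:17266487-17266513, + strand: gagaCCAATgaaaggcggCCACGgcgt
Creld2, chr15:88819516-88819542, - strand: tggaCCAATtgaggctcgCCACGagaa
Derl3, chr10:75893238-75893264, - strand: ctagCCAATggggaagtcCCACGgtag
Syvn1, chr19:6046528-6046554, + strand: gcaaCCAATcggcggtagCCACGggaa

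The related element ERSE-II (ATTGG, which is CCAAT read on the other strand, then 1 base and CCACG) was in 2 of the 28 windows, against 0.0766% of tested genes. These are the co-chaperone gene Dnajb11 and Herpud1, a membrane protein of the degradation machinery, with the 2 blocks in capitals.
Dnajb11, chr16:22857848-22857866, + strand: ggcgATTGGcCCACGcctg
Herpud1, chr8:94386373-94386391, + strand: gctgATTGGgCCACGttgg

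The amino acid response element read by Atf4 and its partners (searched as TGATG, 1 base, AA) was in 4 of the 28 windows (14.3%), against 2.78% of tested genes, and they are shown because 3 of the 4 are targets of the Perk and Atf4 arm. The unfolded protein response element (TGACG followed by TGG) was in 0 of the 28 windows, against 1.02% of tested genes. A match describes these letters in these windows and is not a measured binding site.
Asns, chr6:7693221-7693236, - strand: cacaTGATGaAActtc
Chac1, chr2:119351045-119351060, - strand: ggagTGATGcAAcggc
Trib3, chr2:152344035-152344050, + strand: cggcTGATGtAAacct
Herpud1, chr8:94386313-94386328, - strand: gggcTGATGcAAcccg

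The mature arms of the deleted microRNA, with the seed (bases 2 to 8) in capitals, are given because a match to the seed in a 3′ untranslated region is how a microRNA is commonly paired with its targets. A match to the miR-142a-5p seed (ACTTTAT) was in the longest 3′ untranslated region of 6 of the 32 genes (18.8%: Canx, Pdia3, Pdia6, Herpud1, Sel1l and Derl1), against 15.8% of 12645 tested genes. A match to the miR-142a-3p seed (ACACTAC) was in 2 of the 32 (6.25%: Sel1l and Chac1), against 6.97%. Both shares were near those of all tested genes. Most of the genes that were higher in miR-142-deficient LSKs below, Hspa5, Hsp90b1, Calr and P4hb among them, held a match to neither seed, as did most tested genes. Direct pairing of miR-142 with any of these genes was not tested.
mmu-miR-142a-5p, chr11:87756867-87756887, + strand: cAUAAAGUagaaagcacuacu
mmu-miR-142a-3p, chr11:87756903-87756925, + strand: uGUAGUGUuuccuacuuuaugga

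Levels of the 32 genes spanned a wide range. Per kilobase of the deposited gene length, Calr was the highest of the 32 in WT (684 CPM per kilobase), followed by Hsp90b1 (312), Hspa5 (306), Pdia3 (251), P4hb (240) and Canx (201), while Derl3 (2.49), Trib3 (1.46) and Chac1 (0.225) were the lowest. Among the sensors, Ern1 (30.3 CPM per kilobase) lay above Atf6 (15.0) and Eif2ak3 (8.04) in WT. The 15 folding genes (chaperones, lectins, isomerases, Creld2 and Manf) together took 4918 to 7206 CPM in WT (median 6371) and 7382 to 9750 in CP CML (median 9242). Their sum was 8531 to 10295 CPM in miR-142 KO (median 9534) and 10218 to 13755 in BC CML (median 12959). The 17 others (degradation genes, sensors, transcription factors and Atf4 targets) took 1103 to 1599 CPM in WT (median 1324) and 1549 to 1743 in BC CML (median 1688). The folding sum did not overlap between BC CML and CP CML or between miR-142 KO and WT, whereas that of the other genes overlapped in both pairs.

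**Figure D1:**
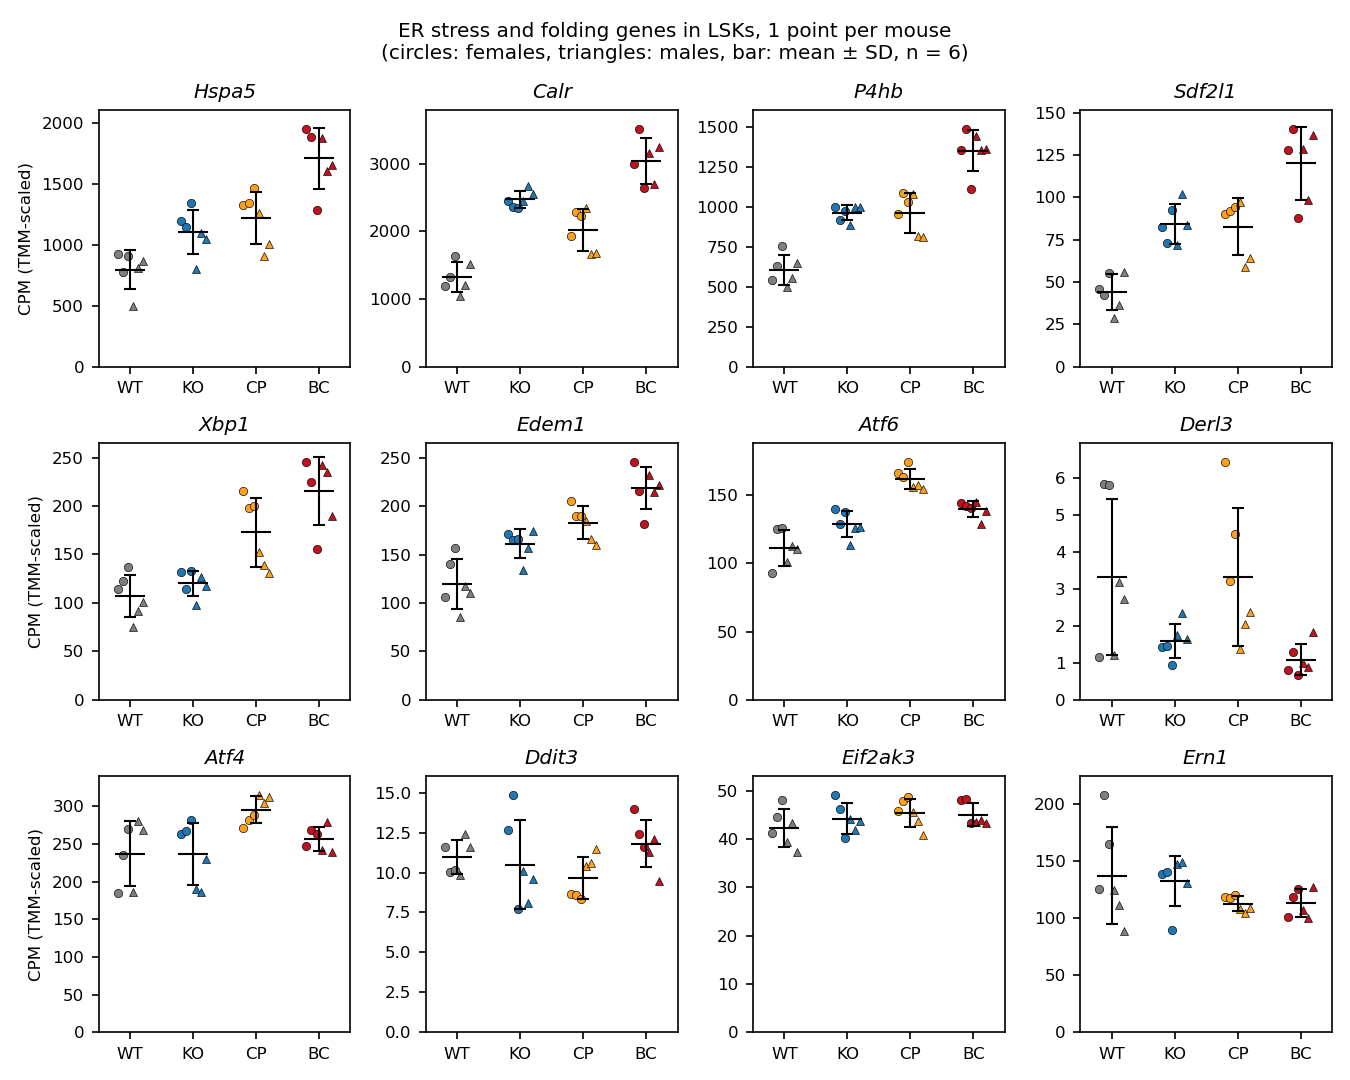
CPM (vertical axes, from 0) of 12 of the 32 genes in each LSK library, by group (horizontal axes: WT, miR-142 KO, CP CML, BC CML), with circles for females, triangles for males and bars for the mean and SD of 6 mice. Calr and P4hb in BC CML lie above all CP CML libraries, Atf6 is highest in CP CML (155 to 174 CPM), and Eif2ak3 lies between 37.2 and 49.1 CPM in all groups.

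BC CML LSKs were first compared with CP CML LSKs, which asks what the loss of miR-142 does beside BCR-ABL. Folding genes were higher in BC CML as a group, and the signalling genes that control them mostly did not pass the test. Of the 32 genes, 15 rose and 2 fell, that is 17, against a background of 38.0% of all tested genes past the threshold (20.4% higher and 17.6% lower). The 6 values of each group did not overlap for 7 of the 32 genes, 6 of them higher in BC CML (Hsp90b1, Calr, Canx, Pdia3, Pdia6, P4hb) and 1 lower (Atf6). These 7 of 32 are near the background of 20.7% of all tested genes. The median log2 fold change was 0.30 over the 32 genes, 0.49 over the 15 folding genes and 0.01 over the 17 others, against 0.01 over all tested genes.

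Among the chaperones, Hspa5 (chr2:34772090-34776529), the most abundant luminal Hsp70 and the protein that holds the sensors silent, was at 908 to 1471 CPM in CP CML (median 1295) and 1286 to 1950 in BC CML (median 1771). It rose by a log2 fold change of 0.49 ± 0.14 (SE), or 1.40-fold (adjusted p = 0.0094), although the lowest BC CML library lay within the CP CML range. Hsp90b1, the ER Hsp90, was at 885 to 1171 CPM in CP CML (median 1101) and at 1239 to 1713 in BC CML (median 1598), with no overlap, and rose by 0.53 ± 0.10 (adjusted p = 0.00022). Its span shares 3966 bases with 1810014B01Rik on the other strand, and the strand setting of the counting is not given in the sources used here. Hyou1, the large ER Hsp70 that exchanges the nucleotide of Hspa5, went from 271 to 465 CPM (median 407) to 438 to 619 (median 588) and rose by 0.54 ± 0.13. Of the co-chaperones, Dnajb11, Dnajc3 and Sdf2l1 also rose, by 0.34, 0.40 and 0.54 on the log2 scale. Dnajb9 (ERdj4), a J protein that brings Hspa5 to Ire1, was the 1 folding gene of 15 that did not pass the test (31.8 to 52.4 CPM in CP CML, 31.0 to 45.3 in BC CML, log2 fold change -0.10 ± 0.14, adjusted p = 0.61).

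The lectins and isomerases showed the same direction. Calr (chr8:84842088-84846931), the calcium-binding lectin calreticulin, had the largest called log2 fold change of the 32 in the higher direction. Its 6 CP CML libraries ran from 1660 to 2340 CPM (median 2080) and its 6 BC CML libraries from 2636 to 3509 (median 3077), a rise of 0.59 ± 0.10 (adjusted p = 9.2e-05). Calnexin (Canx), its membrane-bound counterpart, rose by 0.35 ± 0.07, from 906 to 1049 CPM (median 1007) to 1088 to 1364 (median 1305). P4hb, the founding protein disulfide isomerase, was at 810 to 1086 CPM in CP CML (median 996) and 1116 to 1488 in BC CML (median 1361), a rise of 0.49 ± 0.09 (adjusted p = 0.00023). Pdia3, the isomerase that works with both lectins, rose by 0.48 ± 0.07 (adjusted p = 2.2e-05), and Pdia4 and Pdia6 by 0.46 and 0.45. Creld2 and Manf, small ER stress proteins that can be secreted, rose by 0.51 and 0.56, with overlapping groups.

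Few of the degradation genes, sensors and transcription factors passed the test. Of the 7 degradation genes, Derl1, a channel component, rose by 0.16 ± 0.05 (adjusted p = 0.013), a call that ended when any of CP CML replicates 3 and 5 and BC CML replicates 1 and 4 was left out (adjusted p from 0.061 to 0.074). The Derl1 call also ended with upper quartile normalization (adjusted p = 0.068), in females alone (adjusted p = 0.37) and in males alone (adjusted p = 0.068). Edem1 (0.26 ± 0.11, adjusted p = 0.058), Derl2, Syvn1, Sel1l and Herpud1 did not pass the test. Edem1 was higher and past the threshold in 8 of 38 alternative fits, its log2 fold changes running from -0.22 to 0.81. Derl3 (chr10:75893398-75895941), a derlin known from plasma cells, fell by 1.60 ± 0.41 on the log2 scale (adjusted p = 0.0035), from 1.36 to 6.43 CPM in CP CML (median 2.79) to 0.655 to 1.82 in BC CML (median 0.945), on 13 to 43 counts a library in BC CML. B lineage and plasma cell markers moved with it: 16 such genes summed to 195 to 854 CPM in CP CML (median 393) and 35.7 to 54.2 CPM in BC CML (median 47.4), 8 of the 14 tested were lower and 0 higher, and Jchain, a defining plasma cell gene, was at 135 to 694 CPM against 0.432 to 10.8 CPM. The CP CML and BC CML ranges of the summed markers do not overlap, so sum and group cannot be told apart. With that sum as a covariate Derl3 had a log2 fold change of 0.92 (adjusted p = 0.11). In males alone it was -0.64 and did not pass the test (adjusted p = 0.24).

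Atf6 (chr1:170704457-170867771), the sensor that is cut at the Golgi to release a transcription factor, was the other gene that fell, by 0.21 ± 0.06 (adjusted p = 0.012). It was at 155 to 174 CPM in CP CML (median 160) and 129 to 145 in BC CML (median 142), with no overlap. With the B lineage sum as a covariate, which cannot be told apart from the group, its log2 fold change was 0.09 (adjusted p = 0.50). Atf6 did not pass the test in females alone (adjusted p = 0.12) or males alone (adjusted p = 0.070). Ern1 and Eif2ak3 had log2 fold changes of 0.01 ± 0.14 and -0.01 ± 0.06. Xbp1, whose unspliced and spliced mRNAs these counts do not separate, had 0.32 ± 0.14 (adjusted p = 0.076), its CP CML libraries being at 131 to 216 CPM and its BC CML libraries at 156 to 245. Xbp1 was higher and past the threshold in 5 of 38 alternative fits, its log2 fold changes running from -0.20 to 0.86. Neither Atf4 (-0.21 ± 0.11) nor Ddit3, which encodes the pro-apoptotic factor Chop (0.29 ± 0.13), passed the test, and 0 of the 4 Perk and Atf4 targets did. In the alternative fits Atf4 and Trib3 were each lower and past the threshold in 2 of 38. Chac1 was higher in 2 of 37 and Asns in 1 of 38, and Ddit3 and Ppp1r15a passed in 0 of 38. edgeR's likelihood ratio test and DESeq2 each called the same numbers of the 32 as the main test (15 higher, 2 lower).

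Other measures moved with this difference. Within groups, the 15 folding genes had correlations with the HSC and LSK marker sum from -0.84 to -0.15 (median -0.71, 24 libraries, group means subtracted), and with that sum as a covariate 0 of the 32 genes were higher in BC CML and 4 were lower (Herpud1, Derl3, Atf6, Atf4). The sum and the group cannot be told apart, since the BC CML and CP CML ranges do not overlap. With the summed neutrophil-primed progenitor markers as a covariate (4546 to 7722 CPM in CP CML, 5914 to 8688 in BC CML), 15 were higher and 2 lower, as without it. Mast cell and basophil markers also moved with this difference: 8 genes summed to 1740 to 3367 CPM in the CP CML libraries and 4951 to 10349 in the BC CML libraries, with no overlap, 6 of 8 were higher and 0 lower, and their part in the result was not tested. In females alone 4 of the 32 genes were higher (Hsp90b1, Calr, Pdia3, Pdia6), and in males alone 18. The median log2 fold change of the folding genes was 0.66 in males and 0.32 in females, larger in males for 14 of 15. A test of that difference called 0 of the 32 genes (edgeR's quasi-likelihood test, lowest adjusted p = 0.996, 7 at an unadjusted p below 0.05, no other tool run), against 0% of all tested genes.

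**Figure D2:**
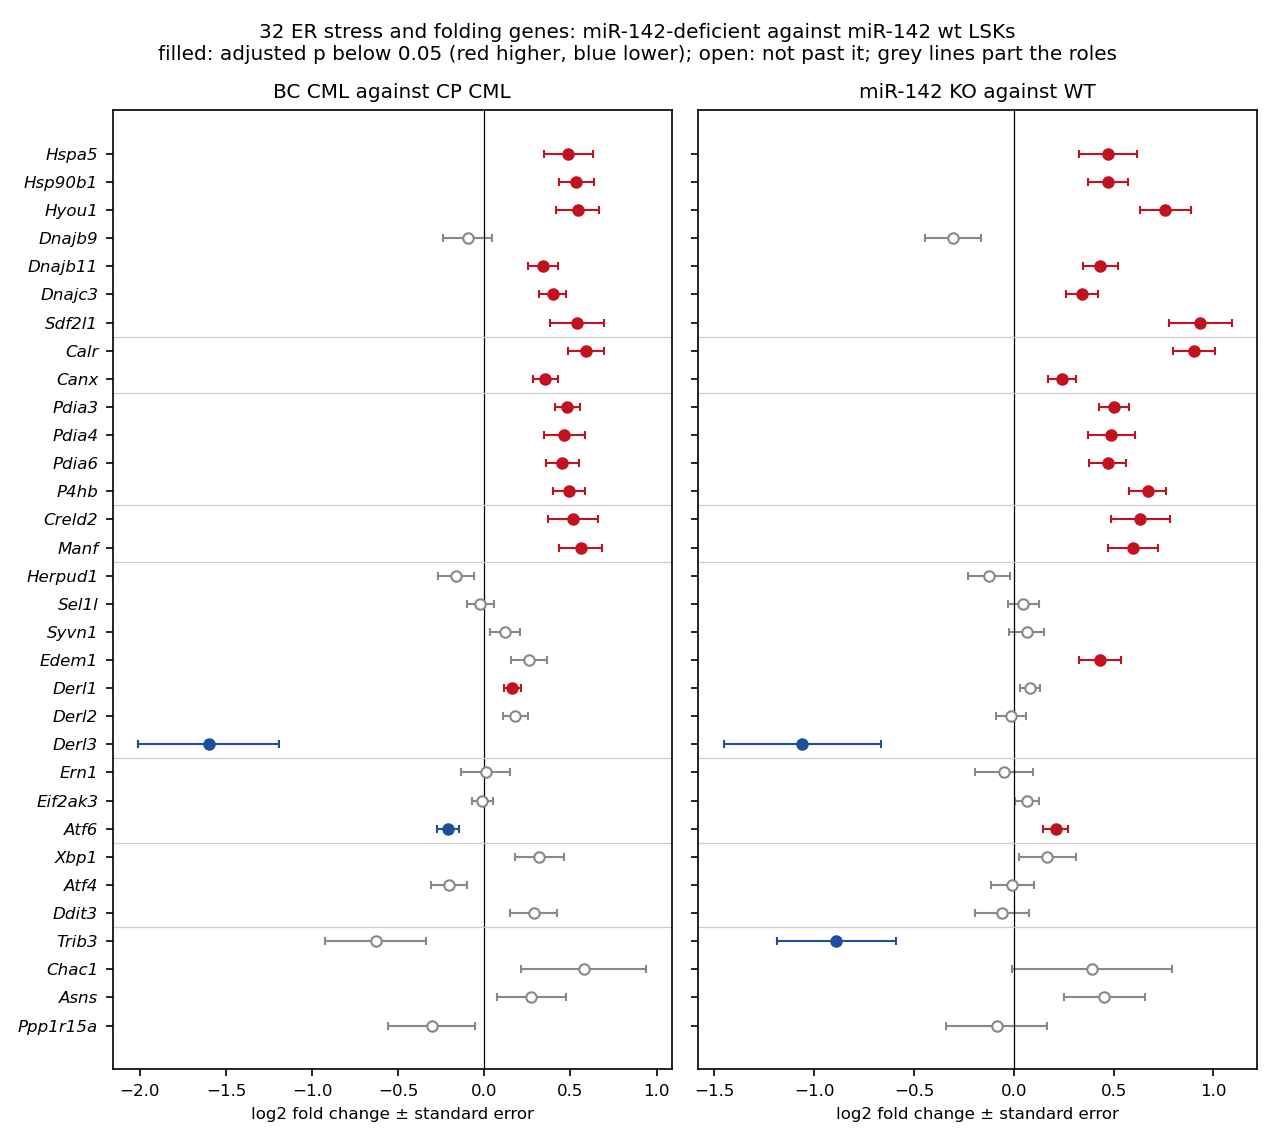
Log2 fold changes (horizontal axes) with standard errors of the 32 genes (rows, ordered by role, grey lines between roles) in BC CML against CP CML and in miR-142 KO against WT. Filled points passed the test, red higher and blue lower: 14 of the 15 genes in the upper 4 blocks are filled and above 0 in both panels, and most of the 17 below are open. The 2 panels have different horizontal scales.

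The miR-142 KO against WT comparison asks the same of normal LSKs, and it shares no library with the comparison above. Here 16 of the 32 genes rose and 2 fell, against a background of 36.3% of tested genes past the threshold (19.9% higher and 16.4% lower). The groups did not overlap for 12 of the 32, all higher in miR-142 KO and all folding genes, against 14.5% of all tested genes. The median log2 fold change was 0.29 over the 32, 0.49 over the folding genes and 0.05 over the others, against 0.01 over all tested genes.

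Sdf2l1, a co-chaperone partner of Hspa5, and Calr had the largest called rises. Sdf2l1 was at 28.8 to 55.8 CPM in WT (median 44.3) and 72.0 to 102 in miR-142 KO (median 83.1), a rise of 0.93 ± 0.16 or 1.91-fold (adjusted p = 6.2e-05). Calr went from 1051 to 1634 CPM (median 1264) to 2348 to 2674 (median 2446), a rise of 0.90 ± 0.10 or 1.87-fold (adjusted p = 4.1e-07). In both genes the lowest miR-142 KO library lay above the highest WT library. Hyou1 rose by 0.76 ± 0.13, P4hb by 0.67 ± 0.09 (497 to 758 CPM against 890 to 1002), Creld2 by 0.63 ± 0.15 and Manf by 0.60 ± 0.12, none of them with overlapping groups. Hsp90b1, Dnajb11, Dnajc3, Pdia3, Pdia4 and Pdia6 rose by 0.34 to 0.50, also without overlap. Hspa5 rose by 0.47 ± 0.14 (498 to 925 CPM in WT, median 838, and 799 to 1343 in miR-142 KO, median 1124, adjusted p = 0.012) and Canx by 0.24 ± 0.07, both with overlapping groups. In males alone neither passed the test (adjusted p = 0.12 for Hspa5 and 0.056 for Canx), and in females alone Canx did not (adjusted p = 0.22). Dnajb9 was again the exception (37.9 to 58.2 against 30.8 to 49.4 CPM, log2 fold change -0.30 ± 0.14, adjusted p = 0.092).

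Outside the folding genes, Edem1, a mannosidase-like protein that picks glycoproteins for degradation, rose by 0.43 ± 0.11 (adjusted p = 0.0029), from 85.4 to 157 CPM in WT (median 114) to 134 to 175 in miR-142 KO (median 165). The Edem1 call ended in females alone (adjusted p = 0.13) and with the neutrophil-primed sum described below as a covariate (0.12, adjusted p = 0.59). Atf6 rose by 0.21 ± 0.06 (adjusted p = 0.013), from 92.8 to 126 CPM (median 112) to 113 to 140 (median 128). That call ended with only the WT and miR-142 KO libraries in the fit (adjusted p = 0.073), in females alone (adjusted p = 0.12), in males alone (adjusted p = 0.11) and with the neutrophil-primed sum described below as a covariate (adjusted p = 0.58). Derl3 fell by 1.06 ± 0.40 (adjusted p = 0.039), from 1.15 to 5.83 CPM (median 2.95) to 0.929 to 2.34 (median 1.55). That call ended in 8 of the fits that left out a library (WT replicates 2, 3 and 5, and miR-142 KO replicates 1, 2, 3, 4 and 6, adjusted p from 0.051 to 0.12) and without the 3 libraries whose marker sums stood apart (log2 fold change -0.71, adjusted p = 0.17). With only the libraries of the compared groups in the fit, 0 of the 32 genes were lower. The B lineage and plasma cell sum was 99.1 to 1050 CPM in WT and 32.5 to 55.9 in miR-142 KO, and with it as a covariate Derl3 had a log2 fold change of 1.56 (adjusted p = 0.0080). The 2 ranges do not overlap, so that sum and the group cannot be told apart here either. Trib3, a pseudokinase induced by Atf4 and Chop, fell by 0.89 ± 0.30 (adjusted p = 0.022), from 1.83 to 5.34 CPM to 0.663 to 2.34, on 15 to 57 counts a library in miR-142 KO, and the call ended without WT replicate 4, miR-142 KO replicate 3 or miR-142 KO replicate 6 (adjusted p from 0.057 to 0.097). Ern1, Eif2ak3, Xbp1, Atf4 and Ddit3 did not pass the test, with log2 fold changes from -0.06 to 0.17.

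Neutrophil-primed progenitor markers moved with this comparison. The 7 genes, Mpo and Elane among them, summed to 1293 to 4905 CPM in WT (median 2205) and 2833 to 7627 in miR-142 KO (median 6651), 7 of 7 were higher, and Elane, a defining one, was at 35.2 to 285 CPM in WT and 175 to 790 in miR-142 KO. With that sum as a covariate 4 of the 32 genes were higher (Hyou1, Calr, Pdia3, P4hb) and 1 lower (Derl3). The ranges of the sum overlap only through WT replicate 3 and miR-142 KO replicate 3. The other WT libraries were at 1293 to 2640 CPM and the other miR-142 KO libraries at 6252 to 7627 CPM. Sum and group can therefore hardly be told apart. With the HSC and LSK sum as a covariate 1 was higher (Calr) and 2 were lower (Herpud1, Derl3), and there too sum and group cannot be told apart. Mast cell and basophil markers summed to 83.3 to 572 CPM in WT and 227 to 2636 in miR-142 KO, with 5 of 8 higher and 0 lower, and their part in the result was not tested. In females alone 12 of the 32 genes were higher and in males alone 14. The median log2 fold change of the folding genes was 0.59 in males and 0.47 in females, and 0 of the 32 genes passed the test of the difference (edgeR's quasi-likelihood test, lowest adjusted p = 0.34, 6 at an unadjusted p below 0.05, no other tool run), against 0.00740% of all tested genes. In males alone Ern1 was higher in miR-142 KO (log2 fold change 0.39, adjusted p = 0.031).

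Whether the effect of miR-142 loss differed between BCR-ABL and normal LSKs was tested as the difference of the 2 effects. Atf6 was the 1 gene of 32 that passed, and the median difference over the 15 folding genes was -0.02. This 1 of 32 is near the background of 3.99% of all tested genes. The effect on Atf6 was lower beside BCR-ABL by 0.42 ± 0.09 on the log2 scale (adjusted p = 0.010). It did not pass in females alone (-0.49, adjusted p = 0.20), in males alone (-0.35, adjusted p = 0.15) or with the neutrophil-primed sum as a covariate (-0.32, adjusted p = 0.079). Of the folding genes, the difference was largest for Sdf2l1 (-0.40 ± 0.22, adjusted p = 0.33) and Calr (-0.31 ± 0.14, adjusted p = 0.23), neither past the threshold, and for Hspa5 it was 0.02 ± 0.20. No gene of the 32 had a called difference in the higher direction, with 0 at an unadjusted p below 0.05 and 0 by edgeR's likelihood ratio test and DESeq2.

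BCR-ABL was then compared with its absence. CP CML against WT shares the WT libraries with miR-142 KO against WT and the CP CML libraries with BC CML against CP CML, so the values are given side by side and not related to each other. Of the 32 genes, 19 rose and 0 fell, against a background of 45.4% of tested genes (22.5% higher and 22.9% lower). At an unadjusted p below 0.05, 1 gene was lower (Dnajb9, log2 fold change -0.34 ± 0.14, adjusted p = 0.051), and edgeR's likelihood ratio test and DESeq2 each called that gene lower. The groups did not overlap for 8 of the 32, near the background of 21.8% of all tested genes. The median log2 fold change was 0.33 over the 32 genes, against -0.02 over all tested genes.

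In CP CML against WT, 13 of 15 folding genes rose, Dnajc3 (0.14 ± 0.08) and Dnajb9 being the others. Sdf2l1 rose by 0.91 ± 0.16 (59.2 to 97.2 CPM in CP CML against 28.8 to 55.8 in WT), P4hb and Hyou1 by 0.67 and 0.66, Hspa5 by 0.61 ± 0.14 and Calr by 0.61 ± 0.10. Canx rose by 0.20 ± 0.07, a call lost without WT replicate 4, WT replicate 5 or CP CML replicate 3 (adjusted p from 0.050 to 0.066), and without the 3 libraries whose marker sums stood apart (adjusted p = 0.065). Of the 6 sensors and transcription factors, 3 passed the test (Xbp1, Atf6 and Atf4). Ern1 (-0.28 ± 0.14, adjusted p = 0.11), Eif2ak3 (0.10 ± 0.06, adjusted p = 0.17) and Ddit3 (-0.18 ± 0.13, adjusted p = 0.29) did not. Xbp1 (chr11:5520641-5525993), the transcription factor spliced by Ire1, rose by 0.69 ± 0.14 (adjusted p = 0.00046), from 75.5 to 137 CPM in WT (median 108) to 131 to 216 in CP CML (median 175). Atf6 rose by 0.54 ± 0.06 (adjusted p = 1.0e-06), the 6 CP CML values all above WT. Atf4, whose protein is controlled mostly by translation, rose by 0.32 ± 0.11 (185 to 280 CPM in WT, 271 to 315 in CP CML, adjusted p = 0.019), a call lost without WT replicate 1 (adjusted p = 0.054). Asns, asparagine synthetase and an Atf4 target, rose by 0.67 ± 0.20, and Edem1 and Sel1l, the scaffold of the degradation ligase, by 0.61 and 0.28.

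Neutrophil-primed markers differed here as well (1293 to 4905 CPM in WT, 4546 to 7722 in CP CML), and with their sum as a covariate 3 of the 32 genes were higher (Dnajb11, P4hb, Atf6) and 1 lower (Ern1). The ranges overlap only through WT replicate 3, the other WT libraries being at 1293 to 2640 CPM. Sum and group can hardly be told apart here either. With the HSC and LSK sum as a covariate 13 were higher. In males alone 12 were higher. Mast cell and basophil markers, 8 genes, summed to 83.3 to 572 CPM in WT and 1740 to 3367 in CP CML, and their part in the result was not tested.

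**Figure D3:**
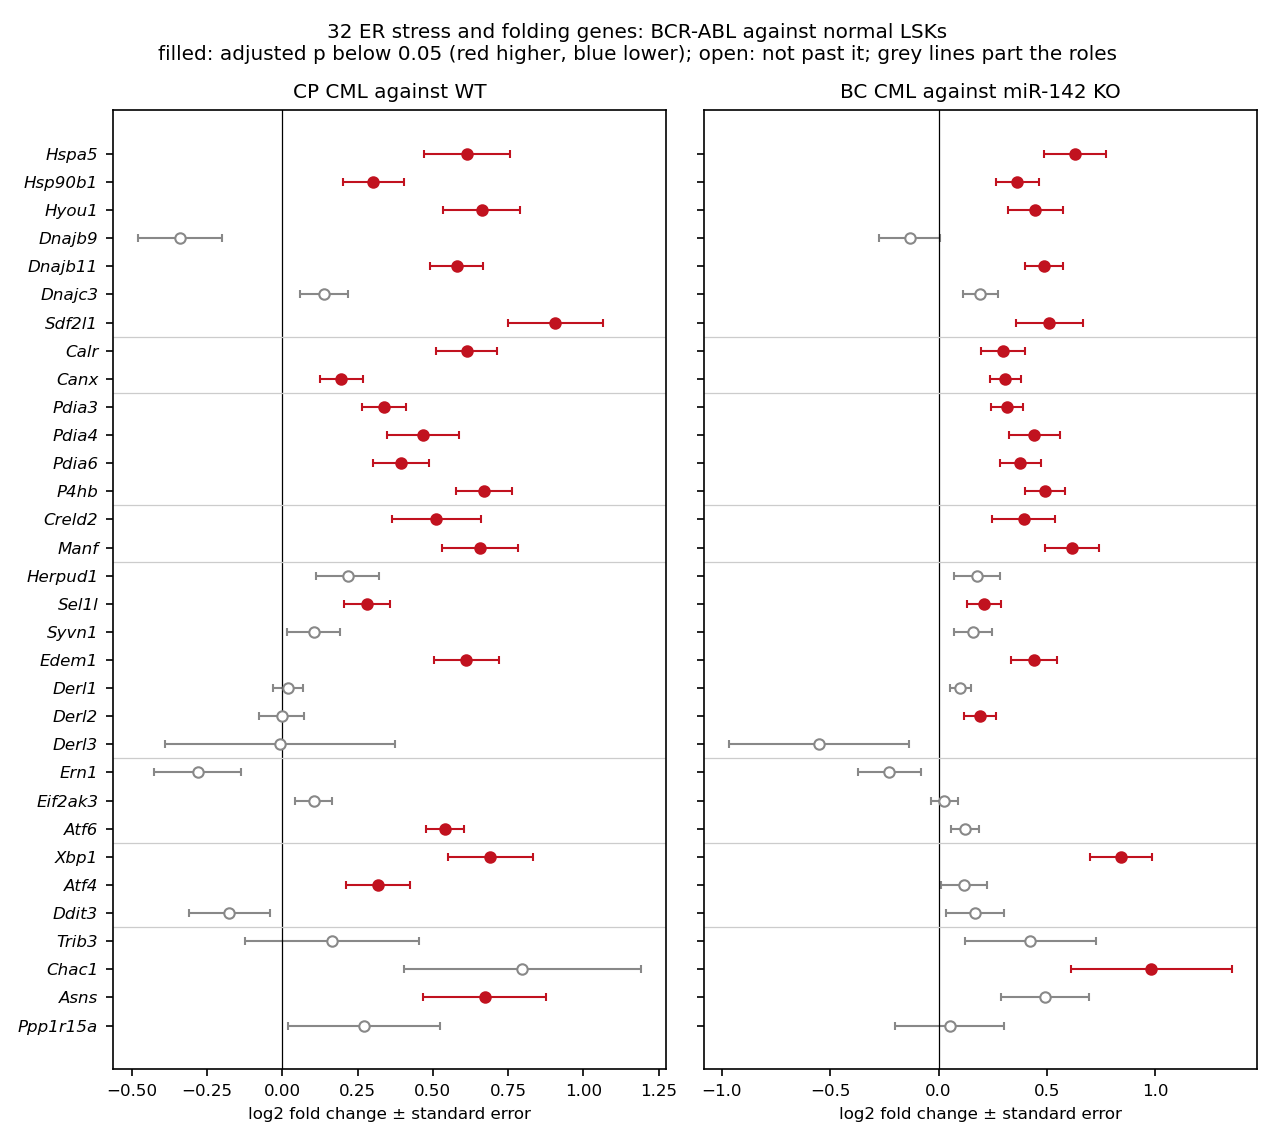
Log2 fold changes (horizontal axes) with standard errors of the 32 genes (rows, ordered by role, grey lines between roles) in CP CML against WT and in BC CML against miR-142 KO. Filled points passed the test, red higher: 19 and 18 are filled, none of them lower, and Xbp1 is filled in both panels. The 2 panels have different horizontal scales.

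In BC CML against miR-142 KO, the same comparison without miR-142, 18 of the 32 genes rose and 0 fell, against a background of 39.6% of tested genes (20.3% higher and 19.3% lower). None was lower at an unadjusted p below 0.05 (0 of 32), and edgeR's likelihood ratio test and DESeq2 called 0 lower. Xbp1 had the largest rise after Chac1 among the called genes, by 0.84 ± 0.14 (adjusted p = 0.00011), from 98.3 to 133 CPM in miR-142 KO (median 122) to 156 to 245 in BC CML (median 230), with no overlap. Edem1 (134 to 175 against 181 to 246 CPM) and P4hb (890 to 1002 against 1116 to 1488 CPM) were the other genes without overlap, and rose by 0.44 ± 0.11 and 0.49 ± 0.09. These 3 of 32 are near the background of 10.6% of all tested genes. Hspa5 rose by 0.63 ± 0.14 and Manf by 0.62 ± 0.12. Chac1, a glutathione-degrading Atf4 target, rose by 0.98 ± 0.37 (adjusted p = 0.039), from 0.170 to 0.795 CPM to 0.723 to 1.37, on 4 to 29 counts a library.

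Several of the 18 calls ended when 1 library was left out. Calr (0.30 ± 0.10) was lost in 4 of the fits that left out a library, without miR-142 KO replicate 2 or BC CML replicates 2, 4 or 6. Chac1 was lost in 7 (miR-142 KO replicates 4 to 6, BC CML replicates 1, 2, 4 and 6) and Creld2 in 8 (replicates 1, 2, 4 and 6 of both groups). Sel1l was lost in 10 (all miR-142 KO replicates and BC CML replicates 1, 2, 4 and 6) and Derl2 in 19 (all libraries except WT replicates 1 and 6, miR-142 KO replicates 5 and 6 and BC CML replicate 3), with adjusted p from 0.051 to 0.17 over these fits. Derl2 was also lost without the 3 libraries whose marker sums stood apart (adjusted p = 0.076). In females alone 7 genes were higher, in males alone 10 were higher and 1 lower (Ern1), and with the HSC and LSK sum as a covariate 9 were higher. Mast cell and basophil markers summed to 227 to 2636 CPM in miR-142 KO and 4951 to 10349 in BC CML, and their part in the result was not tested.

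Within groups the folding genes varied together across the libraries. After the group means were subtracted from log2 CPM, the 105 pairs of folding genes had a median Pearson's r of 0.84 over the 24 libraries (range -0.39 to 0.96), the 136 pairs of other genes one of 0.25, and the 255 mixed pairs one of 0.35. These are descriptions, since the points share libraries and their depth and cell makeup. Manf (0.94) was closest to Hspa5, and Sdf2l1 with Pdia6 had 0.96. Dnajb9 stood outside this block (0.04 with Hspa5, -0.39 with Hyou1) and was closest to Ppp1r15a (0.82), the phosphatase subunit that restores translation, which itself was at 0.90 with Atf4. Xbp1 followed Hspa5 (0.83) and Edem1 (0.82), Ern1 did not follow Hspa5 (-0.14), and Trib3 was at -0.53 with Atf4. Derl3 was at 0.85 with the B lineage and plasma cell sum.

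**Figure D4:**
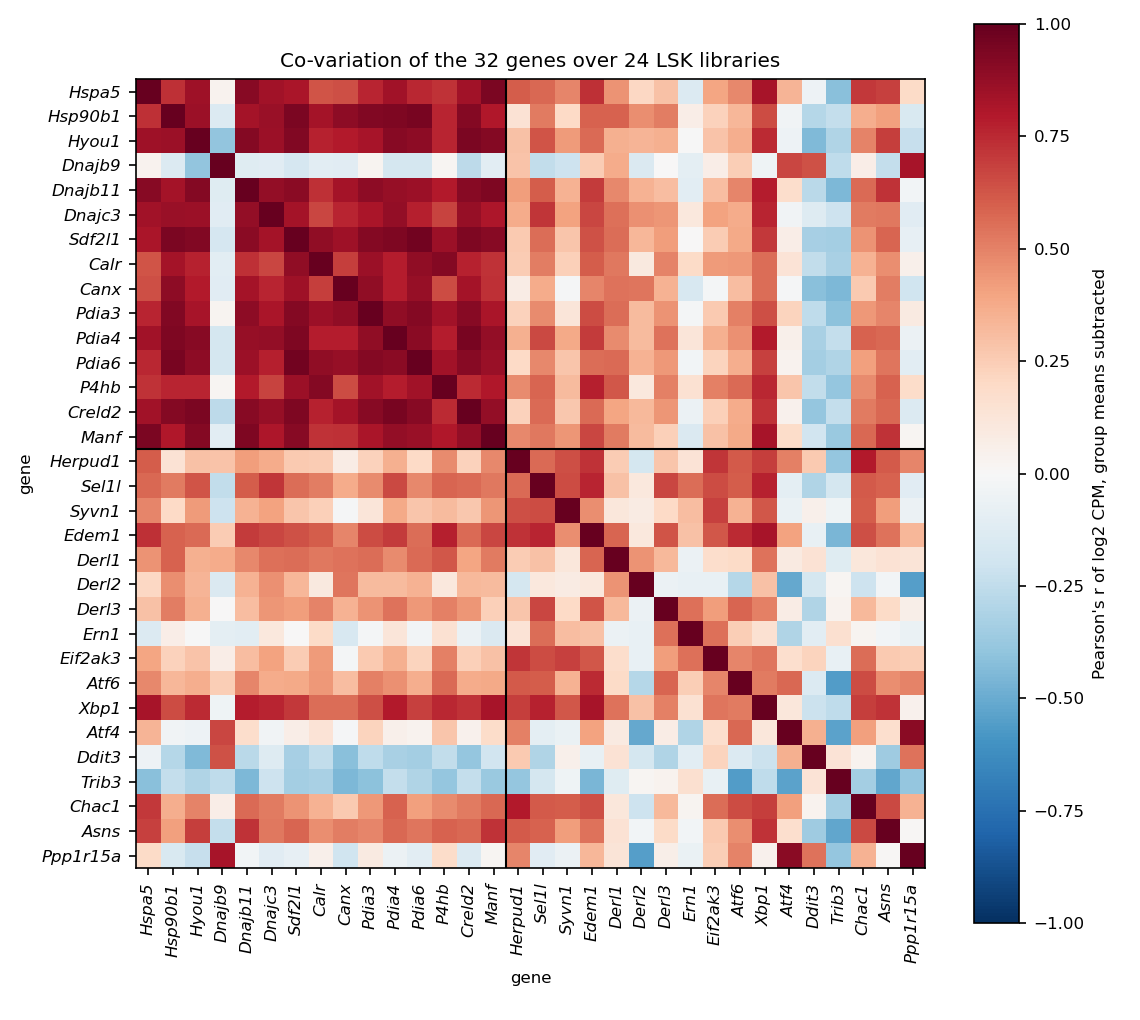
Pearson's r of log2 CPM between each pair of the 32 genes (both axes, ordered by role) over 24 libraries with group means subtracted, from -1 (blue) to 1 (red). Black lines part the 15 folding genes, which form a red block (median 0.84) apart from Dnajb9, from the 17 others (median 0.25).

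Hspa5 and the marker sums can be read library by library. The folding genes had correlations with the neutrophil-primed sum from 0.22 to 0.79 (median 0.43), with the B lineage sum from 0.20 to 0.47 (median 0.29) and with the mast cell sum from -0.01 to 0.63 (median 0.18), over the same 24 libraries. Hspa5 itself was at -0.79 with the HSC and LSK sum. The WT library lowest in Hspa5 (498 CPM) was also the one with the highest HSC and LSK sum (5258 CPM).

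**Figure D5:**
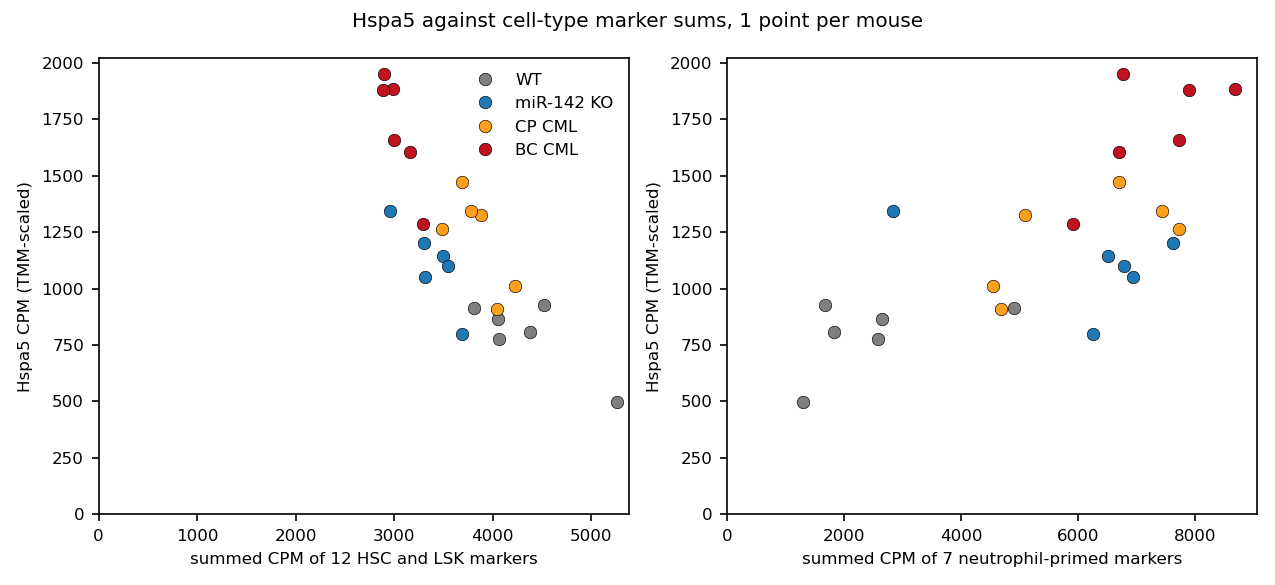
Hspa5 CPM (vertical axes) against the summed CPM of 12 HSC and LSK markers (left) and of 7 neutrophil-primed progenitor markers (right), 1 point per mouse, coloured by group. Hspa5 is higher where the HSC and LSK sum is lower (r of -0.79 with group means subtracted), and the BC CML libraries (2885 to 3289 CPM) lie left of all CP CML libraries.

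Genes of the same pathways outside the 32 were counted by list. The background, as above, is 38.0% of all tested genes called in BC CML against CP CML (20.4% higher) and 36.3% in miR-142 KO against WT (19.9% higher). Of 31 other ER folding enzymes tested, 18 rose and 2 fell in BC CML against CP CML (64.5% called), and 19 rose and 1 fell in miR-142 KO against WT (64.5%). Fkbp11, a prolyl isomerase of secretory cells, rose by 1.10 ± 0.17 and 1.56 ± 0.17 (means of 4.33 CPM in WT, 11.1 in CP CML, 12.8 in miR-142 KO and 23.9 in BC CML), and Erp29, a chaperone with a thioredoxin fold, by 0.53 and 0.52. Of 30 other degradation genes, 12 rose and 1 fell in the former (43.3% called, against 38.0% called and 20.4% higher of all tested genes). In the latter 15 rose and 2 fell (56.7% called, against 36.3% called and 19.9% higher). Fam8a1, a cofactor of the Hrd1 ligase, rose by 1.27 ± 0.09 and 1.18 ± 0.09, and Erlin2 rose by 0.43 and 0.32.

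The machinery that brings proteins into the ER moved with the folding genes. Of 32 genes of the translocon, signal recognition and glycan transfer, 26 rose and 0 fell in BC CML against CP CML (81.3% called), and 22 rose and 0 fell in miR-142 KO against WT (68.8%). Stt3b, a catalytic subunit of the oligosaccharyltransferase, rose by 0.40 and 0.51, Spcs2 of the signal peptidase by 0.50 in the former, and Ddost by 0.62 in the latter. Of 35 other integrated stress response targets, 6 rose and 0 fell in BC CML against CP CML (17.1% called, against 38.0% called and 20.4% higher of all tested genes). In miR-142 KO against WT 16 rose and 0 fell (45.7% called, against 36.3% called and 19.9% higher). In CP CML against WT 26 rose and 1 fell (77.1% called, against 45.4% called and 22.5% higher). Stc2, a secreted stanniocalcin, rose by 2.73 ± 0.60 and 3.44 ± 0.65 from low levels (means of 0.352 CPM in CP CML and 0.168 in WT), and the cystine carrier Slc7a11 by 1.37 ± 0.26 and 1.88 ± 0.29. In miR-142 KO the libraries spread widely for Stc2, with a mean of 1.89 CPM and an SD of 2.40.

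Of 26 other sensors and regulators, 9 rose and 2 fell in BC CML against CP CML (42.3% called, against 38.0% called and 20.4% higher of all tested genes). In miR-142 KO against WT 7 rose and 1 fell (30.8% called, against 36.3% called and 19.9% higher). Both called shares were near the background, with more genes higher than lower. Atf6b, the paralog of Atf6, rose by 0.42 ± 0.07 (adjusted p = 6.0e-05) and 0.41 ± 0.07 (adjusted p = 9.4e-05), while Atf6 fell in the former and rose in the latter, with the losses of those calls given above. Of 19 cytosolic heat shock genes, which serve protein folding outside the ER, 9 rose and 0 fell in BC CML against CP CML (47.4% called), and 3 rose and 1 fell in miR-142 KO against WT (21.1%, below the background of 36.3%). Bag3 rose in both, by 0.70 and 0.72, and Hsph1 rose by 0.93 ± 0.21 in the former.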

How the data were processed

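The authors sequenced poly(A)-selected libraries of LSK RNA (Kapa mRNA HyperPrep, paired reads), trimmed them (Trimmomatic), aligned them to mm10 with STAR 2.6.0 and counted reads per gene with HTSeq 0.11.1, per the submitters' processing notes; the annotation and the strand setting are not given in the sources used here. The deposited values are raw counts per gene, with gene lengths, for 24 libraries of 6 mice per group. Total counts per library were 16267965 to 24687077. The 32 members and the lists of other genes were chosen with earlier results of these data known.

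Counts were normalized by TMM and tested in edgeR 4.0.16 (R 4.3.3) with the quasi-likelihood test in 1 fit of 4 group means, after filterByExpr, with Benjamini-Hochberg adjustment over 13520 genes. CPM use TMM-scaled library sizes, and log2 CPM a prior count of 2. The test was tested on simulated data for BC CML against CP CML. Of 200 changed genes among 13447, it recovered 200, with 12 false calls. Of these 200, 100 were set to a log2 fold change of 1 in size. The changed genes were drawn only from those above a floor of mean CPM, and all genes had the same dispersion. Recovery at smaller log2 fold changes, such as most of those given above, was not tested. Neither was recovery of genes as low as Derl3, Trib3 and Chac1. Alternatives were the likelihood ratio test, DESeq2 1.42.0, other scalings and filters, sex, subsets of mice and each library left out. Others were chosen after seeing the data: leaving out 3 libraries whose marker sums stood apart, and 3 marker sums as covariates.

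All 32 members are named. Of each list of other genes, up to 3 per direction could be named, by smallest p among those past the threshold in BC CML against CP CML or miR-142 KO against WT. HSC and LSK, neutrophil-primed progenitor, B lineage and plasma cell, and mast cell and basophil markers are given with the results. Sums of the other marker lists (mature neutrophils, monocytes and dendritic cells, T and NK cells, erythroid cells, megakaryocytes) are in the closing section. Gene spans are those of the deposited table. Promoters and microRNAs came from RefSeq (GRCm38.p6) and 3′ untranslated regions from GENCODE M21, the longest per gene. Replicate numbers follow accession order and pair no samples. Each library carries its own number in the labels and was taken as 1 mouse. No count columns (0) were left out. Python 3.11.15, pandas 2.3.3 and matplotlib 3.10.9 were used for sequences and figures.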

Additional observations from a re-analysis of the deposited data

Results flagged for a closer look

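In 4 of the 128 sets of 6 values (32 genes in 4 groups), 1 library lay far from the other 5, by its gap to the nearest value over the range of the group (Dixon's test at its 95% critical value). Chance gives about 1 in 20 such sets. Hspa5 in WT had a ratio of 0.648, with 498 CPM in replicate 4 (male) and 775 to 925 CPM in the others. P4hb in BC CML had a ratio of 0.653, with 1116 CPM in replicate 3 (female) and 1359 to 1488 in the others. In miR-142 KO, replicate 3 (female) stood apart for Ern1 (ratio 0.696, 89.9 CPM against 131 to 149) and Asns (ratio 0.760, 54.6 CPM against 23.6 to 31.1).

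Of 36 sets of marker sums, 4 met the same limit. WT replicate 3 stood apart in neutrophil-primed progenitor markers (ratio 0.627, 4905 CPM against 1293 to 2640) and in monocyte, dendritic cell and macrophage markers (ratio 0.932, 825 CPM against 125 to 173). In miR-142 KO, replicate 3 was lowest in neutrophil-primed markers (ratio 0.713, 2833 CPM against 6252 to 7627). In CP CML, replicate 4 was highest in T and NK cell markers (ratio 0.669, 115 CPM against 94.9 to 102).

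The effect of miR-142 loss on Atf6 differed between BCR-ABL and normal LSKs by -0.42 on the log2 scale (edgeR's quasi-likelihood test, adjusted p = 0.010). It was the 1 gene of 32 called, near the background of 3.99% of all tested genes. The call was lost in females alone, in males alone and with the neutrophil-primed sum as a covariate.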

How the results depend on the processing

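Counts of the 32 genes past the threshold were within 1.5 times those of the report except as follows. BC CML against CP CML, higher (15): 4 in females alone and 0 with the HSC and LSK sum as a covariate; lower (2): 4 with only the libraries compared, 1 in females alone, 0 in males alone, 0 with the B lineage sum and 4 with the HSC and LSK sum. miR-142 KO against WT, higher (16): 4 with the neutrophil-primed sum and 1 with the HSC and LSK sum; lower (2): 1 with sex as a covariate, in females alone, without the 3 libraries that stood apart, with the neutrophil-primed sum and with the B lineage sum, and 0 with only the libraries compared and in males alone. CP CML against WT, higher (19): 12 in males alone and 3 with the neutrophil-primed sum; lower (0): 1 by the likelihood ratio test, by DESeq2, with upper quartile normalization, in females alone and with the neutrophil-primed sum. BC CML against miR-142 KO, higher (18): 7 in females alone, 10 in males alone and 9 with the HSC and LSK sum; lower (0): 1 in males alone. The difference of effects, lower (1): 0 in females alone, in males alone and with the neutrophil-primed sum. Leaving out 1 library at a time gave 14 to 17 higher in BC CML against CP CML, 16 to 17 in miR-142 KO against WT, 18 to 22 in CP CML against WT and 13 to 20 in BC CML against miR-142 KO, and 0 to 2 lower in miR-142 KO against WT and 0 to 1 in CP CML against WT.

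Log2 fold changes turned sign for these genes, a direction being given only where the gene passed the test in the report or in the alternative. With the HSC and LSK sum they were, in BC CML against CP CML, -0.14 for Hspa5, -0.0551 for Dnajb11, -0.11 for Sdf2l1 and -0.0236 for Creld2, and in miR-142 KO against WT -0.18 for Hspa5, -0.0160 for Canx, -0.0423 for Edem1, -0.0208 for Atf6 and 0.36 for Trib3. With the B lineage sum they were 0.92 for Derl3 and 0.0892 for Atf6 in the former and 1.56 for Derl3 in the latter. In males alone Ern1 was at 0.39 in the latter. The marker sums differ between the groups, so these fits take out part of the group difference by their construction, and the cause of the other changes was not tested. Upper quartile normalization moved the share of higher genes among all called from 53.7% to 42.4% in BC CML against CP CML and from 54.7% to 42.0% in miR-142 KO against WT, with a shift of the median of all genes of -0.05 in both, while 14 and 16 of the 32 genes were higher. CPM on library totals moved 0 of 128 group means by 1 SD. Chac1, on 4 to 29 counts a library, is the gene where depth limits most.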

Other observations

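Sums of the marker lists not given with the results were as follows, in CPM, as medians of 6 libraries. Mature neutrophil markers (10 genes) were at 28.1 (WT), 66.3 (CP CML), 128 (miR-142 KO) and 87.4 (BC CML). Monocyte, dendritic cell and macrophage markers (12 genes) were at 155, 415, 270 and 352 in the same order of groups. T and NK cell markers (9 genes) were at 125, 97.9, 140 and 108, erythroid markers (7 genes) at 106, 30.1, 102 and 20.4, and megakaryocyte markers (7 genes) at 188, 238, 409 and 259. A sum need not move as its genes do. In miR-142 KO against WT, 6 of the 12 monocyte, dendritic cell and macrophage markers were lower and 1 was higher. In BC CML against CP CML, 3 of 9 tested mature neutrophil markers were lower and 0 higher.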
